A study of Mus musculus with 6 samples.

Results

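The baseline bone marrow of mice with an inherited shortage of erythropoietin was described from the 3 arrays that received no erythropoietin, out of 6 arrays in the series. Labels defined the members: 1 array of an untreated animal group and 2 arrays taken 6 hours after an intraperitoneal injection of phosphate-buffered saline (PBS). The members and the gene lists were chosen with earlier results of these data known. All 6 samples were labelled as male mice of 10 weeks, of mixed strain, with the genotype ISAM (Epo-/-::3.3K-Epo3'-Tg458), so the control arrays carry the Epo deletion and the transgene as well. The remaining 3 arrays, taken 6 hours after 3000 U/kg recombinant human erythropoietin (rHuEPO), were not contrasted with the controls; they entered the estimate of the spread, the alternative fits and filters, the check of the deposited table and the range of some levels. RNA came from marrow cells of the femur. The labels do not say that replicates were separate animals or whether animals were pooled, so p-values and SDs measure the spread between these samples, which may in part be technical. The untreated array was the only 1 of its group, and it was hybridised and scanned on another slide than both PBS arrays, so among the control arrays slide and treatment cannot be told apart.

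Erythropoietin is the kidney hormone that keeps committed red cell precursors alive and dividing through its receptor, the kinase JAK2 and the transcription factor STAT5. In ISAM mice the native Epo gene is deleted and a transgene supplies the hormone without the element that drives it in the adult kidney, which leaves adults anemic. Marrow of the femur holds red cell precursors beside a large population of granulocytes and their precursors, B cell precursors, megakaryocytes, and a small fraction of bone and stromal cells.

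Each array carried 45018 spots, of which 1639 were controls and 43379 were gene spots. Levels are given as the log2 processed signal minus that of the array's 75th percentile, so a level of 0 is the 75th percentile of the gene spots. The 75th percentile lay at 257 signal units on the untreated array, 221 on PBS replicate 1 and 244 on PBS replicate 2, and no gene spot was saturated. Between 48.6% and 50.5% of the gene spots were flagged by the scanner software as well above background. Of 41157 probes 26678 (64.8%) matched a RefSeq symbol, which gave 18208 named genes and 14080 identifiers without a symbol, each represented by its brightest probe. The signal of a probe depends on the probe as well as on the transcript, so the ranks below order signals and not transcript numbers. Probes of 1 gene differed widely: over 3480 genes with at least 2 probes well above background on all 3 arrays, the brightest and dimmest probe lay a median of 4.20-fold apart.

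Promoters of genes with bright signals in these arrays are shown as examples that hold a match, to place red cell and granulocyte genes side by side. The windows are the 250 bases before the RefSeq start on GRCm38.p6, read 5′ to 3′ on the gene's strand, and capitals mark matches on either strand: in the first 3 windows to the letters AGATAA or TGATAA that GATA factors read, in the other two to the C/EBP letters TTGCNNAA. Hba-a1 (chr11:32283422-32283671, plus strand) encodes alpha globin, Alas2 (chrX:150547167-150547416, plus strand) the first enzyme of erythroid heme synthesis and Epor (chr9:21963577-21963826, minus strand) the erythropoietin receptor. Ltf (chr9:111019042-111019291, plus strand) encodes lactoferrin and Ngp (chr9:110419558-110419807, plus strand) neutrophilic granule protein.
Hba-a1: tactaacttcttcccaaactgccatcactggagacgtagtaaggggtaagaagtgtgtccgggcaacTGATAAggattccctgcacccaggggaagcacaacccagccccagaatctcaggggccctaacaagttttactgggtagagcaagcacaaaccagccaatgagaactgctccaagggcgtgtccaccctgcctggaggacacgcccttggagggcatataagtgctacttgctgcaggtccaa
Alas2: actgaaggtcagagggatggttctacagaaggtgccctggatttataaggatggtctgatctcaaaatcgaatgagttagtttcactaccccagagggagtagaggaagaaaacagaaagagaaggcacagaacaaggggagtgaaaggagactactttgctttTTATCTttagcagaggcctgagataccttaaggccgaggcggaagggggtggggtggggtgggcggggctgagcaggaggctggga
Epor: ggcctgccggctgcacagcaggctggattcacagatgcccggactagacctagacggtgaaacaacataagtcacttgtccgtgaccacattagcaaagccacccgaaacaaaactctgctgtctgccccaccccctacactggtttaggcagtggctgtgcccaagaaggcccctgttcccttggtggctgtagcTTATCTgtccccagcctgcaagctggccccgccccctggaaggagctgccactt
Ltf: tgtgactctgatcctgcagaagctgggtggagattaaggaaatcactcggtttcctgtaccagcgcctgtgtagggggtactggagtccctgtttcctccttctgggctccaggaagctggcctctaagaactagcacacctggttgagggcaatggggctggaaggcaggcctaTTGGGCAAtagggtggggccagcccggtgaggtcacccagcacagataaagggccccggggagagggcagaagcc
Ngp: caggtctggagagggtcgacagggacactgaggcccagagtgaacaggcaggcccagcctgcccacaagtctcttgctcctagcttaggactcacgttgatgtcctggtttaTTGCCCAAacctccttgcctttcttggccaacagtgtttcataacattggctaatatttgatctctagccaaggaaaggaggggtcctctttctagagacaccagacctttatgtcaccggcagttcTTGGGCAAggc
The 5 windows were printed because they hold a match. Of 6 erythroid windows read, 4 held the GATA letters, and those of Hbb-bt and Gata1 did not. Of 6 granulocyte windows read, 2 held the C/EBP letters, and those of Mpo, Elane, S100a8 and Camp did not. The Ltf window also holds 1 match to the GATA letters, which is not capitalised. Over the red cell membrane list 7 of 16 promoters (43.8%) held the GATA letters, over all erythroid lists 24 of 89 (27.0%), over the granulocyte lists 13 of 58 (22.4%), and over all 32851 RefSeq promoters the share was 16.6%. The C/EBP letters stood in 14 of 58 promoters of the granulocyte lists (24.1%), in 5 of 89 of the erythroid lists (5.62%) and in 9.56% of all promoters. Other motifs searched were not above the share of all promoters in their lineage. The CACCC box (CCACACCC) stood in 2 of 89 erythroid promoters (2.25%) against 3.2% of all. The EBF letters CCCNNGGG stood in 1 of 12 promoters of B cell precursor genes (8.33%) against 11.8% of all. A gene can have several promoters in these counts, the lists were not tested against all promoters, and a match is a description of letters, not of a bound site.

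Red cell and granulocyte genes were among the brightest signals of the marrow, together with ribosomal proteins and histones. The 20 brightest named genes, from the highest mean downward, were Lars2, Hbb-bt, Hba-a1, Fau, S100a9, H2ac20, H2ac1, Tmsb4x, Rps16, H2ac10, Rpl37a, H2aj, Gpx1, Ltf, Rps18, Chil3, Lrrc58, Myl6, Aldoa and Rps2. Hbb-bt and Hba-a1 encode beta and alpha globin, S100a9 a calcium-binding protein of neutrophils, Ltf and Chil3 granule and secreted proteins of maturing neutrophils, Gpx1 the glutathione peroxidase abundant in red cells and Aldoa a glycolytic aldolase. The brightest probe of Hbb-bt read 9.95 on the untreated array, 10.01 on PBS replicate 1 and 9.95 on PBS replicate 2. Another of its 4 probes read 8.71, 8.20 and 9.26 and was lowest on PBS replicate 1. By their brightest probes Aldoa was the most variable of the 20, with 8.40, 9.41 and 8.64 on the same arrays, highest on PBS replicate 1.

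The median rank of a group's members was read as a percentile of the mean signal among all 32288 genes and identifiers, where named genes as a whole had a median of 65.5. Housekeeping and ribosomal genes had a median percentile of 99.2, granulocyte genes 97.3, cell division genes 96.8, erythroid genes 90.1, megakaryocyte genes 85.4, monocyte and macrophage genes 82.8, lymphoid genes 73.8, stem and progenitor genes 68.1 and stromal genes 67.3. Of the 30 lists, 527 distinct genes were listed, 501 had a matched probe, 422 were well above background on all 3 arrays, 26 on 1 or 2 of them and 53 on none. As a check of the tissue label, 24 genes of liver, brain, muscle, kidney, skin, testis and other tissues had a median percentile of 33.1, and 19 of the 24 failed to clear background on every control array. The exceptions that were well above background on all 3 were Prm1, a sperm protamine, with levels of -0.22, -1.33 and 1.02, and Gfap, an astrocyte filament, with -3.11, -2.95 and -1.92.

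**Figure D1:**
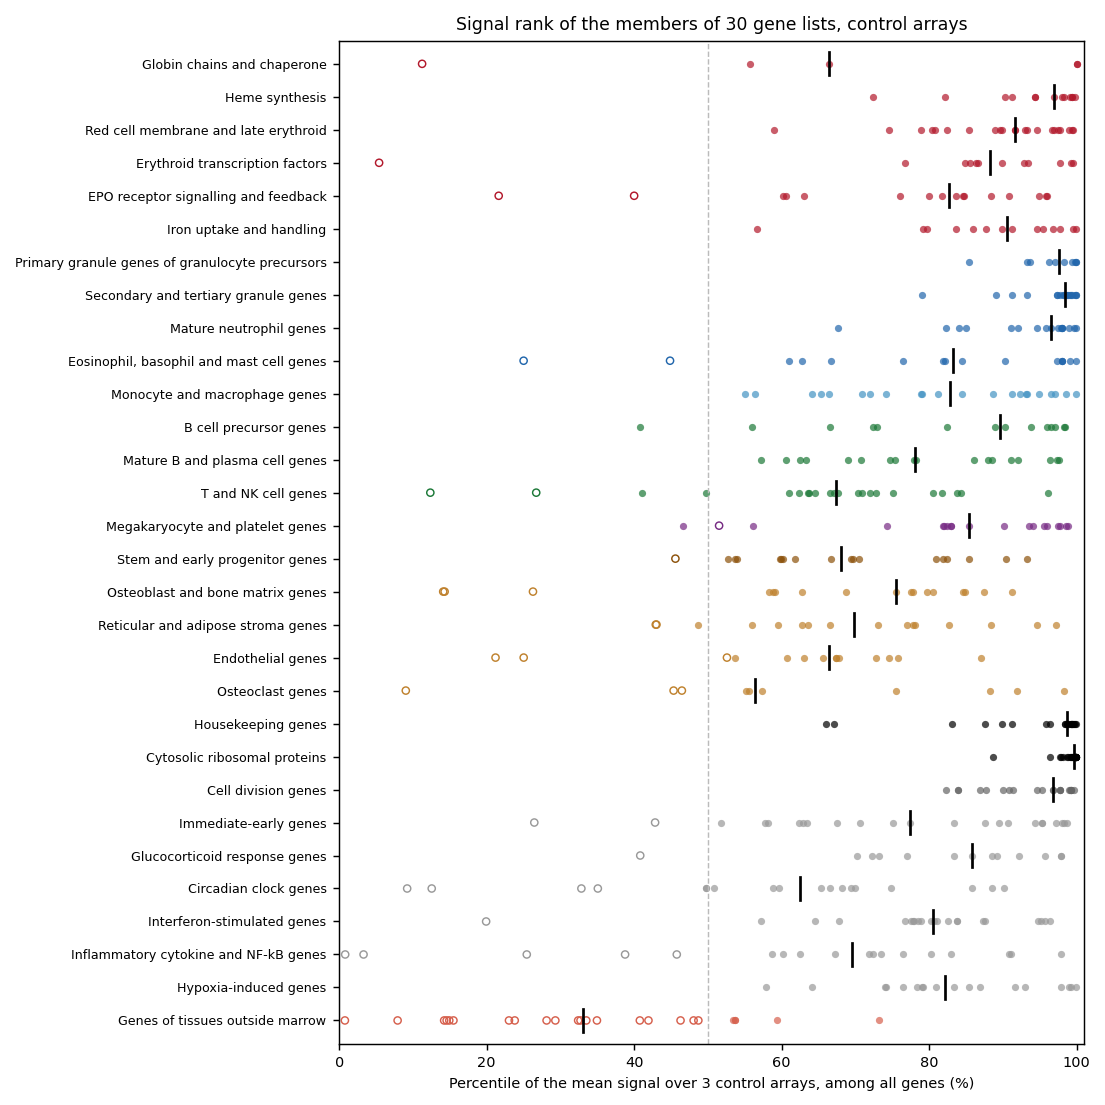
Each point is a gene of the named list, at the percentile of its mean signal over the 3 control arrays among all 32288 genes (x axis, percent); open circles were not well above background on any of the 3, and black bars are list medians. Granule, ribosomal and heme genes sit at the right edge, with list medians of 96.9 to 99.7, while the genes of other tissues have a median of 33.1 and are mostly open.

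Heme synthesis genes were bright as a group: all 13 were well above background on all 3 arrays, 11 lay in the top 10% of signals, and the median percentile was 96.9. Alas2, the rate-limiting erythroid enzyme whose promoter is printed above, read 8.19 on the untreated array, 7.33 on PBS replicate 1 and 8.24 on PBS replicate 2. Urod, which acts in the middle of the pathway, and the mitochondrial iron importer Slc25a37 lay at percentiles of 99.3 and 99.1. At the low end were Uros, at percentile 72.3, and the mitochondrial transporter Abcb10 at 82.2. Alas1, the isoenzyme of other tissues, lay at 96.9, with levels of 4.61, 5.02 and 4.83.

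Among the globins the adult chains stood at the very top and the embryonic chains far below. Hba-a1 read 9.82, 9.56 and 9.60 in the order untreated, PBS replicate 1 and PBS replicate 2. The embryonic beta-like chain Hbb-y read -1.18, -2.16 and -0.89, and Hbb-bh1 was well above background on 2 of 3 arrays. Hba-x, the embryonic alpha-like chain, cleared background on none. Near-identical globin copies can share signal on these probes, so the values of Hbb-bt and Hba-a1 may include their neighbours, and Hba-a2, Hbb-bs and the chaperone Ahsp had no matched probe.

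All 22 measured genes of the red cell membrane and late erythroid list were well above background on all 3 arrays, with a median percentile of 91.7. Slc4a1, the band 3 anion exchanger, read 7.20 on the untreated array, 6.70 on PBS replicate 1 and 7.33 on PBS replicate 2. Carbonic anhydrase Car2, with 6.44, 5.81 and 6.49, was likewise lowest on PBS replicate 1. The spectrin chain Sptb lay at percentile 82.4 and the Kell-associated Xk at 59.0.

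Of the erythroid transcription factors, 11 of 12 measured were well above background on all 3 arrays. Lyl1, Zfpm1 (FOG1, the GATA1 cofactor) and Nfe2 were brightest, at percentiles of 99.5, 99.2 and 97.7. Klf1, the activator of adult beta globin, read 2.85, 2.35 and 3.18, and Gata1 read 2.60, 1.39 and 2.32. Both were lowest on PBS replicate 1, as were 8 of the 11 factors in all. The other 3, among them Lyl1 and Nfe2, were highest there. The only probe of Foxo3, a regulator of late erythroblast maturation, stayed near background on all 3.

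Genes of the erythropoietin pathway covered the whole range of signals. Epor read 4.41, 4.0 and 4.75 and lay at percentile 95.9, beside the phosphatase Ptpn6 at 96.0 and the kinase Lyn at 94.9. Stat5b, Stat5a and Jak2, which carry the receptor's signal, lay at 88.4, 84.6 and 81.8. The feedback inhibitors Socs3, Socs1 and Cish lay at 90.8, 83.6 and 76.1. Cish, a direct STAT5 target, read -0.31 on the untreated array, 0.65 on PBS replicate 1 and 0.61 on PBS replicate 2, so the untreated array was the lowest, but the difference of -0.94 had an adjusted p of 0.662 in limma.

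Epo and the erythroblast hormone Erfe, which lowers hepcidin, cleared background on none of the control arrays. Both probes of Epo were dim; the brighter read -4.95, -5.04 and -5.01. Adult Epo is made mainly in the kidney, so these marrow values do not check the genotype label. Erfe read -5.69, -5.78 and -5.97. Gdf15, another secreted erythroblast factor, read -1.14 on the untreated array and -1.06 on PBS replicate 2 but -3.85 on PBS replicate 1, where it was not well above background.

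The iron genes lay between those groups, with a median percentile of 90.6 and all 14 well above background on all 3 arrays. The ferritin chains Fth1 and Ftl1, which store iron, were at 99.9 and 99.5, the exporter Slc40a1 at 95.4, the transferrin receptor Tfrc at 89.8 and the endosomal importer Slc11a2 at 85.9. Fth1 was steady, with 8.47, 8.46 and 8.56. Steap3, the erythroid endosomal ferrireductase, was the dimmest at percentile 56.7.

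With the lists pooled, 45 of 61 measured granulocyte genes lay in the top 10%, against 41 of 82 erythroid genes. The erythroid pool also holds transcription factor, erythropoietin pathway and iron genes, so the contrast depends on what was listed. Heme synthesis alone had 11 of 13 in the top 10%. Primary granule genes had 9 of 10, secondary and tertiary granule genes 16 of 18 and mature neutrophil genes 13 of 17. Over all named genes the share was 15.7%. All 10 measured primary granule genes, 18 secondary and tertiary granule genes and 17 mature neutrophil genes were well above background on all 3 arrays. Mpo, the myeloperoxidase of primary granules, read 8.48 on the untreated array, 9.04 on PBS replicate 1 and 8.40 on PBS replicate 2. Ltf read 8.85, 9.23 and 8.83, and S100a9 read 9.37, 9.56 and 9.43. In each of these PBS replicate 1 was the highest, and the untreated value lay closer to PBS replicate 2.

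Some eosinophil and basophil genes were bright as well, but not the list as a whole. That list, which also holds mast cell genes, had a median percentile of 83.3, and 7 of its 16 measured genes lay above percentile 90. Prg2 and Epx, granule proteins of eosinophils, lay at percentiles of 99.9 and 98.0, and the basophil proteases Prss34 and Mcpt8 at 98.0 and 90.3. Cma1 and Tpsb2, proteases of connective tissue mast cells, were the 2 measured genes of the list that cleared background on none. The other 14 were well above background on all 3 arrays, so no level of mast cell signal is read from those 2. In the monocyte and macrophage list Ly6c2 lay at 99.9 and F13a1 at 98.6. Of genes of the central macrophage of erythroblastic islands, Vcam1 was at 91.2 and Spic, a factor of iron-recycling macrophages, at 79.0. Siglec1 was at 56.4, where it was well above background on 2 of 3 arrays. These were picked from a list with 9 of 22 measured genes in the top 10%, so they do not set the level of macrophage genes.

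Lymphoid genes split by lineage. B cell precursor genes had a median percentile of 89.6, led by Vpreb3, Cd79b, Blnk and Dntt at 98.4, 98.3, 97.0 and 96.5. Mature B and plasma cell genes had a median of 78.1, and T and NK cell genes 67.4, with Ccl5 the only one in the top 10%. Cd4 and Foxp3 stayed near background on all 3, while the T cell receptor partners Cd3d and Cd3g were well above background on all 3, at 84.3 and 67.7.

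Megakaryocyte genes were steady between the arrays: none of the 16 members well above background on all 3 had an SD above 0.5, against 16.4% of all such genes. The same held for the 21 genes of the housekeeping list and the 21 of the cell division list. The brightest megakaryocyte genes were the platelet chemokines Ppbp and Pf4 at percentiles of 98.8 and 98.6. Among stem and progenitor genes Myb lay at 93.2 and Cd34 at 90.4, Slamf1 read -1.32, -1.36 and -1.35, and Mecom cleared background on none.

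Stromal genes had the lowest median percentile of the cell groups above, 67.3, which was close to the 65.5 of all named genes. Some members were bright. The chemokine Cxcl12 lay at percentile 97.3, the fatty acid binding protein Fabp4 at 94.6, and the collagens Col1a2 and Col1a1 at 91.2 and 84.6. Of 57 measured stromal genes 42 (73.7%) were well above background on all 3 arrays, against 59.6% of all named genes. Another 11 were so on none, a state shared by 34.0% of all named genes. The 11 included Sp7, Phex and Dmp1 of bone-forming cells, Plin1 of fat cells, Il7, the vessel genes Tek, Flt4 and Sele, and the osteoclast genes Calcr, Dcstamp and Atp6v0d2.

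Of all 32288 genes 15685 (48.6%) had no probe well above background on any control array by the scanner flag; against the 95th percentile of the negative control spots the count was 6866. The share was 34.0% among named genes (6192 of 18208) and 67.4% among identifiers without a symbol (9493 of 14080). By their brightest probe, 14184 genes were well above background on all 3 arrays, 934 on 2 and 1471 on 1. Of the last, 714 were so on the untreated array alone, against 377 on PBS replicate 1 alone and 380 on PBS replicate 2 alone. Such a flag says that a signal did not clear the local background, not that a transcript was absent. Beyond the genes above, dim list members included the cytokine genes Cxcl1, Cxcl2, Ptgs2, Il1a and Il10, the clock genes Per3, Npas2, Ciart and Bhlhe41, the immediate-early genes Egr3 and Fosl1, and Ifi44. Their relatives were not all dim: Il1b lay at percentile 91.1, Per1 at 88.5 and Junb at 98.4.

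Over the 14184 genes well above background on all 3 arrays, the median SD was 0.28 on the log2 scale. In 4 equal groups by signal the median SD was 0.32, 0.29, 0.26 and 0.27 from the dimmest to the brightest. An SD above 0.5 was seen in 2330 genes (16.4%). In these the untreated array was farthest from the other 2 arrays for 1047 genes (44.94%). PBS replicate 1 was farthest for 910 (39.06%) and PBS replicate 2 for 373 (16.01%). Over all genes the shares were 41.47%, 34.48% and 24.05% in the same order. For scale, the repeated spots of the same probes on 1 array had a median SD of 0.06 to 0.11. Across genes the levels correlated at r = 0.980 between the PBS arrays, 0.980 between the untreated array and PBS replicate 2 and 0.972 between the untreated array and PBS replicate 1, which describes agreement across genes that are not independent replicates.

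**Figure D2:**
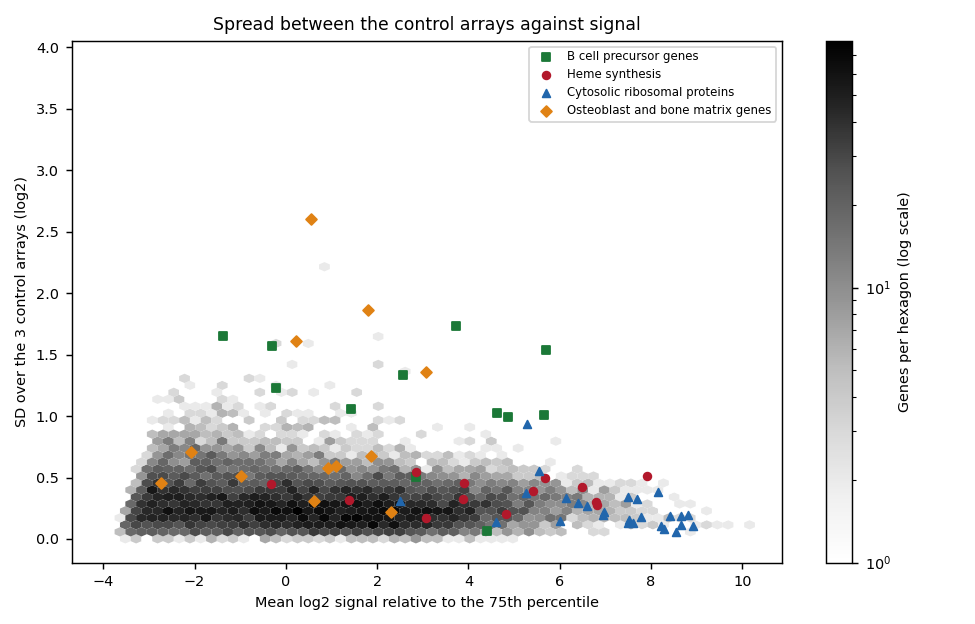
The SD over the 3 control arrays (y axis, log2) is plotted against the mean level (x axis, log2 signal relative to the 75th percentile) for the 14184 genes well above background on all 3; grey hexagons count genes on a log scale and coloured marks are members of 4 lists. B cell precursor and bone matrix genes lie well above the median of 0.28, ribosomal proteins mostly below it and heme synthesis genes mostly around 0.4.

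Among named genes above the median of measured signals, the 12 with the largest SD were Lrmda, Rpl30, Col1a1, Wfdc17, Vpreb1, Cplx2, Ckap4, Bfsp2, Myl4, Chst3, Akap12 and Cpm. Of the 12, 8 were lowest on PBS replicate 1. Vpreb1, the surrogate light chain of pre-B cells, read 4.43 on the untreated array, 1.76 on PBS replicate 1 and 5.02 on PBS replicate 2. Col1a1, the main collagen of bone, read 3.17, -0.31 and 2.57. Bfsp2, Cplx2, Myl4, Chst3, Akap12 and Cpm were also lowest on PBS replicate 1, and both probes of Myl4 and both of Bfsp2 gave the same order. Other genes of the 12 were lowest elsewhere: the ribosomal gene Rpl30 read 0.47, 3.98 and 3.59, lowest on the untreated array, and Lrmda read 2.18, 1.96 and -1.71, lowest on PBS replicate 2, each from a single probe. The 12 smallest SDs, all at or under 0.013, belonged to Psmc2, Safb2, Sh3glb2, Rcor1, Asap1, Uqcrc2, Scaf4, Cabin1, Lsm8, Rasl11b, Nt5c2 and Eif3d; Psmc2, a proteasome ATPase, read 4.62 on every array. With 14184 genes and 3 arrays some SDs are small or large whatever the gene, so these names are a description.

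The spread was not even over the cell types. The median SD of a list's members was 1.14 for B cell precursors, 0.64 for bone matrix genes and 0.51 for mature B and plasma cell genes, against 0.19 for ribosomal proteins, 0.24 for megakaryocyte genes and 0.27 for housekeeping genes. An SD above 0.5 was found in 11 of 12 B cell precursor genes, 9 of 12 bone matrix genes and 2 of 26 ribosomal proteins, against 16.4% of all genes. In bulk RNA, fewer cells of a type and less RNA per cell cannot be told apart.

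**Figure D3:**
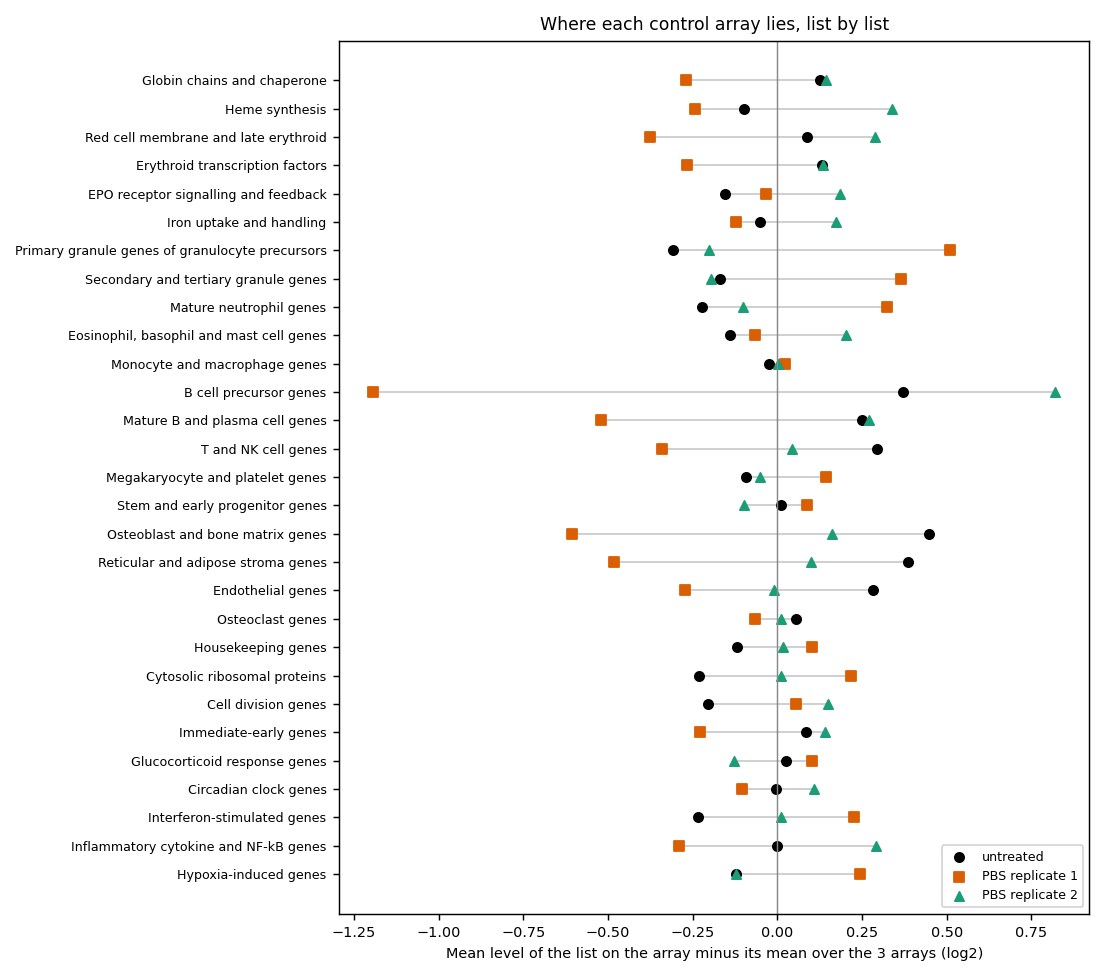
For each list the mean level of its members well above background on all 3 arrays is shown on each control array, as the difference from the mean of the 3 arrays (x axis, log2); circles are the untreated array, squares PBS replicate 1 and triangles PBS replicate 2. PBS replicate 1 lies to the left for B cell precursors, bone matrix, red cell membrane and heme genes and to the right for the 3 neutrophil lists; the globin mean rests on 3 genes, of which the embryonic Hbb-y differs most.

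The PBS arrays differed from each other by lineage, although they came from 1 group and 1 slide. Past 2-fold lay 750 of 14184 genes (5.29%), 288 higher on replicate 1 and 462 higher on replicate 2. Among B cell precursor genes 10 of 12 were past 2-fold, all of them higher on replicate 2, and the list's median difference, over 14 genes well above background on at least 1 control array, was -2.21 for replicate 1 minus replicate 2, or 4.63-fold. Over all genes that median was 0.03. With 1 array on each side the difference has no test.

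B cell precursor genes ordered the arrays in nearly the same way. Vpreb3, a pre-B cell receptor component, read 5.96 on the untreated array, 4.04 on PBS replicate 1 and 7.07 on PBS replicate 2. Ebf1, a factor that sets B cell identity, read -0.31, -3.27 and -0.53, and the recombinase gene Rag1 read 0.65, -2.12 and 0.53. Cd79a, Cd79b, Blnk, Dntt, Il7r and Vpreb1 were lowest on PBS replicate 1 too. Cd93, which marks early B cells but also other cells, read 4.34, 4.46 and 4.41, and Bst1 read 2.27, 3.19 and 3.09; these were the members that were not lowest there. Set against all 6 arrays, the mean of the 12 genes was 1.63 on PBS replicate 1, 2.40 on the next lowest array, 3.20 on the untreated array and 3.65 on PBS replicate 2, which was the highest.

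**Figure D4:**
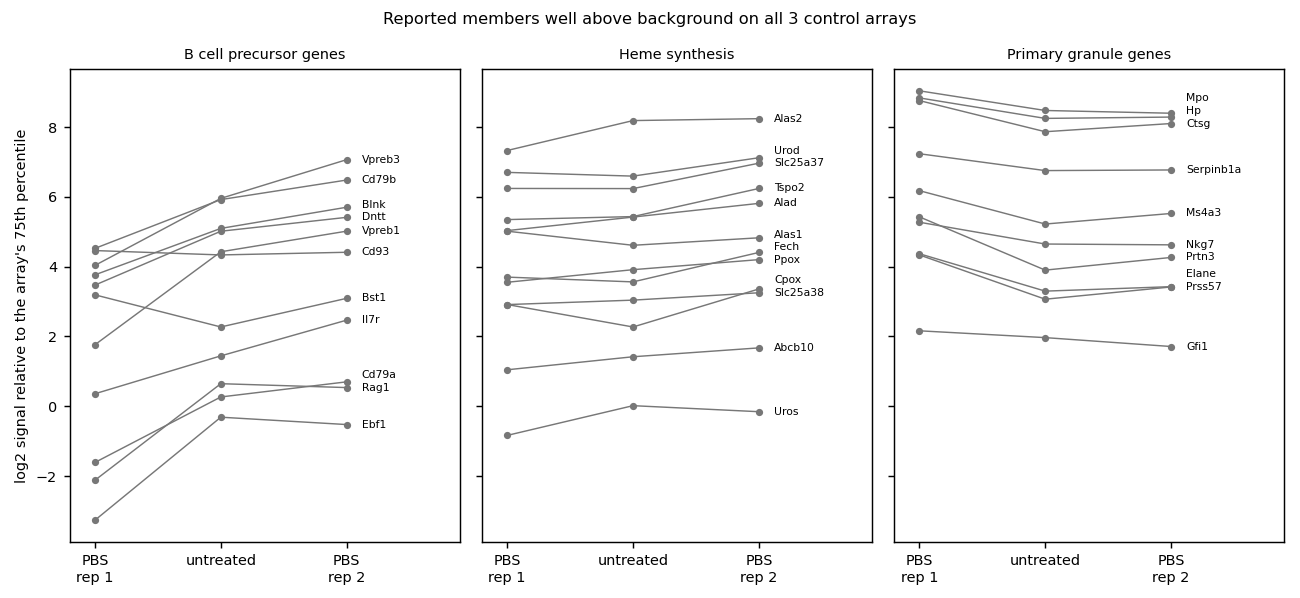
Each line joins 1 gene's levels (y axis, log2 signal relative to the 75th percentile) on PBS replicate 1, the untreated array and PBS replicate 2, for the members of 3 lists that are reported by name and well above background on all 3; the lines only link values of a gene and imply no order of the arrays. Most B cell precursor genes are lowest on PBS replicate 1, and all 10 primary granule genes are highest there.

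Mature B cell genes differed in the same direction: the list's median difference of replicate 1 minus replicate 2 was -0.85, with 14 of 18 higher on replicate 2. Ms4a1 (CD20) read 3.62, 2.22 and 4.0 in the order untreated, PBS replicate 1 and PBS replicate 2, and Cd22 read 1.35, -0.58 and 1.30. Jchain, the joining chain of secreted antibodies, read 4.24, 4.94 and 4.67, and the plasma cell receptor Tnfrsf17 read -2.95, -2.08 and -2.29; both were higher on replicate 1. For T and NK cell genes the median was -0.40, with 17 of 20 higher on replicate 2.

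Erythroid genes were lower on PBS replicate 1 as well, by less. The median of replicate 1 minus replicate 2 was -0.69 for red cell membrane genes, with 21 of 22 higher on replicate 2, and -0.65 for heme synthesis, with 12 of 13 higher on replicate 2. Of the 22 membrane genes 2 were past 2-fold, and of the 13 heme genes none. Car1, a carbonic anhydrase of red cell precursors, read 4.75 on the untreated array, 2.94 on PBS replicate 1 and 4.12 on PBS replicate 2. Bpgm, which sets the red cell's 2,3-bisphosphoglycerate, read 5.68, 4.45 and 5.52. Slc2a1, the glucose transporter, was the member higher on replicate 1, with 2.37, 3.69 and 3.48.

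Neutrophil granule genes differed in the opposite direction. All 10 primary granule genes and all 18 secondary and tertiary granule genes were higher on PBS replicate 1 than on replicate 2, with medians of 0.65 and 0.51, and so were 15 of 17 mature neutrophil genes, with a median of 0.43. Over all genes tested 8753 of 16589 were higher on replicate 1. Prtn3, a serine protease of primary granules, read 3.90 on the untreated array, 5.43 on PBS replicate 1 and 4.27 on PBS replicate 2, the widest spread of that list. Elane, neutrophil elastase, read 3.30, 4.37 and 3.43. The chemokine Ccl6, with 5.97, 6.07 and 6.97, and the cytokine Il1b, with 2.97, 2.94 and 3.21, were the mature neutrophil genes higher on replicate 2. Quantile scaling reduced the secondary granule median to 0.34 and the mature neutrophil median to 0.26. Eosinophil, basophil and mast cell genes did not share the direction of the neutrophil lists: 12 of 14 were higher on replicate 2, with a median of -0.32. The neutrophil, erythroid and B cell lists thus differed between the same pair of arrays, and the part of cell composition in each difference was not tested.

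Smaller lists showed the same contrast of arrays. Hypoxia-induced genes had a median of 0.45 for replicate 1 minus replicate 2, with 13 of 18 higher on replicate 1; the glycolytic genes Pgk1 and Eno1 read 6.30, 7.06 and 6.37, and 1.51, 2.50 and 1.84. Bone matrix genes had a median of -0.86 and were higher on replicate 2 in 11 of 14. Bglap, osteocalcin, read 2.33 on the untreated array, -2.43 on PBS replicate 1 and 1.78 on PBS replicate 2, a 27.1-fold range, while Mgp, matrix Gla protein, read -1.10, 2.02 and -0.26. Interferon-stimulated genes had no common direction, with a median of 0.10 and 14 of 21 higher on replicate 1, though Ifit2 read -3.29, -1.0 and -4.68.

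Of the 30 lists, 21 had a median difference between the PBS arrays of at least 0.3 in size, and all 21 kept their sign under each of 6 alternatives. Median scaling and the deposited table could not change these signs, because they shift all lists alike by a small amount. For heme synthesis they gave -0.653 and -0.648. Their size did not always hold: normexp background correction left -0.28 for bone matrix and -0.18 for T and NK cell genes, and the globin median of -0.54 was -0.03 over the genes well above background on all 3 arrays. Ribosomal proteins did not belong to them: their median of 0.19, with 24 of 26 higher on replicate 1, became -0.02 with quantile scaling. Housekeeping genes went from 0.13 to -0.07 in the same way, so no direction is read for either list.

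Whether saline injection was accompanied by a change was asked by setting the untreated array against the PBS arrays. In limma, with 3 groups over 6 arrays so that the rHuEPO arrays contributed to the spread, 72 of 16589 genes (0.434%) passed an adjusted p of 0.05, 68 of them higher on the untreated array (0.41%) and 4 lower (0.0241%). None of the 448 tested list members passed in limma; 31 of them (6.92%) had an unadjusted p under 0.05, 16 higher and 15 lower, against 1020 of all 16589 genes. The smallest adjusted p of a member was that of Wfdc21, a neutrophil gene, with 3.98 on the untreated array, 6.34 on PBS replicate 1 and 5.83 on PBS replicate 2 and an adjusted p of 0.190.

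Most genes that passed were dim. Of the 68 higher, 66 were not well above background on either PBS array and only 1 was well above background on all 3. Those 66 entered the test only through the untreated array, where they are high. The filter thus favoured genes in that direction, and their p-values are no support for a difference. Of the 28 with a symbol, the 8 with the largest difference, leaving out a clone name, were Trex2, Sstr1, Olig1, Robo2, Olfr307, Lrrc43, Tex38 and Prrt3; Sstr1 is a somatostatin receptor, Olig1 an oligodendrocyte factor, Robo2 an axon guidance receptor and Olfr307 1 of 7 olfactory receptors among the 68, out of 87 tested. Trex2, a DNA exonuclease, read -1.40 on the untreated array against -5.73 and -5.86 on the PBS arrays, a difference of 4.40 (SE 0.26) and at least 5.06-fold, with an adjusted p of 0.00575 from limma. Olig1 read -1.52 against -5.79 and -5.88, at least 4.64-fold higher with the same adjusted p in limma. The bounds set the untreated level against the lowest signal well above background on each PBS array, while the p tests the dim readings themselves.

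Of the 4 lower genes the 3 with a symbol were Golga3, Cox4i2 and Fmo4. Golga3, a Golgi protein, read -4.92 on the untreated array, where it was not well above background, and -1.69 and -2.06 on the PBS arrays, at least 3.89-fold lower with an adjusted p of 0.0269 in limma. With its probes averaged the difference was -1.11 and the adjusted p in limma 0.616, so the call rests on 1 of its 2 probes. Cox4i2 and Fmo4 were at least 1.54-fold and 1.15-fold lower. All 3 named genes entered the test only through PBS arrays, where they are high.

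The spots of the 68 genes were not spread evenly over the untreated array. Of the 68, 29 (42.6%) touched another of the called spots, against 1.33% of all tested genes, and 56 (82.4%) touched a spot whose own difference was past 2-fold, against 33.2%. Below the middle row of the array lay 64 of 68 (94.1%), against 50.6% of all tested genes. Only 2 of the 68 were well above background on the rHuEPO array of the same slide. Filters that ask for all 3 control arrays or at least 3 of 6 arrays therefore leave out nearly all 68 before testing. A count of 0 higher under those filters was largely fixed in advance. The calls fell to 0 higher and 0 lower, with 700 to 1327 genes at an unadjusted p under 0.05, in 6 alternative limma fits, which were normexp background correction, both stricter filters, the 3 control arrays alone, the slide as a block and an intensity trend with a robust prior. Without rHuEPO replicate 2 or 3 the higher calls were 28 and 25 and the lower calls 0; without PBS replicate 1 or 2 the lower calls were 65 and 81. The part of spot position in these calls was not tested.

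**Figure D5:**
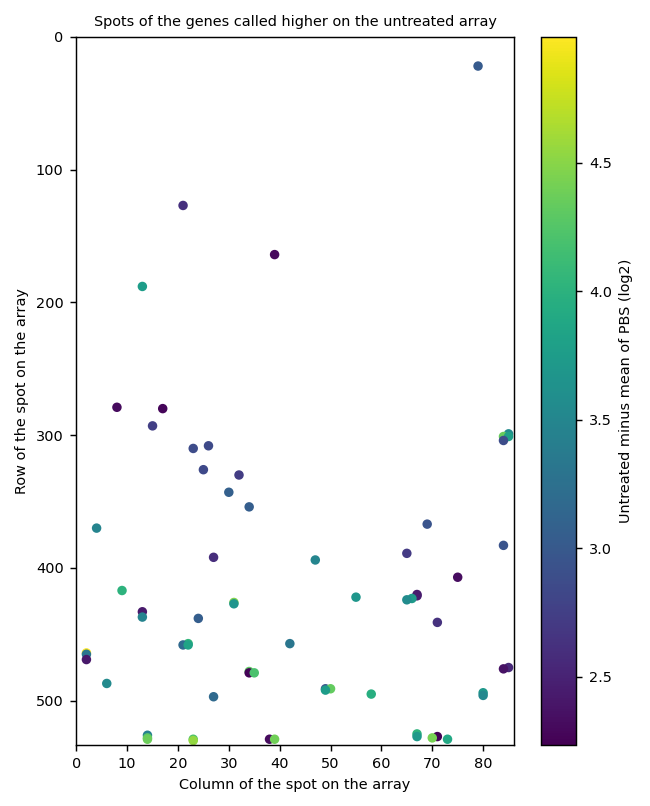
Positions, by column and row of the array, of the spots of the 68 genes called higher on the untreated array, coloured by the log2 difference of the untreated array from the mean of the PBS arrays. Most spots lie in the lower rows, 64 of 68 below the middle, and several touch each other.

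Over all genes the untreated array's median difference from the PBS mean was -0.10; median scaling made it -0.24 and quantile scaling -0.02, so list values are read relative to it. Bone matrix genes had a median of 0.86, reticular and fat stroma genes 0.61, B cell precursors 0.50, T and NK cell genes 0.42 and mature B cell genes 0.40, and primary granule genes -0.44; these 6 lists kept their sign in 6 alternatives, but not their size. Median scaling and the deposited table shift all lists alike, here by too little to change these signs. Quantile scaling gave -0.11 for primary granule genes and 0.77 for B cell precursors. With normexp the medians were 0.42 for bone matrix, 0.40 for reticular and fat stroma, 0.25 for T and NK cell and 0.21 for mature B cell genes. Past 2-fold between the untreated array and PBS replicate 1 were 10 of 12 B cell precursor genes and 8 of 12 bone matrix genes, against 9.88% of all genes. Between the untreated array and PBS replicate 2 the counts were 2 and 1 of 12, against 5.53% of all genes. For B cell precursors the value mixed an untreated array above replicate 1 by a median of 1.71 with one below replicate 2 by 0.44. Primary granule genes lay 0.76 below replicate 1 and 0.08 below replicate 2. Of these 6 lists, 3 were higher on the untreated array than on either PBS array at the median: T and NK cell genes by 0.62 and 0.30, reticular and fat genes by 0.85 and 0.35, bone matrix genes by 1.08 and 0.50.

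In those lists the untreated array exceeded both PBS arrays for 15 of 20 T and NK cell genes, 11 of 14 reticular and fat genes and 9 of 14 bone matrix genes, against 4911 of 16589 genes (29.6%). Cfd, adipsin, read -0.31 on the untreated array, -2.37 on PBS replicate 1 and -1.40 on PBS replicate 2, and Adipoq, adiponectin, read 2.24, 0.60 and 1.60. Tcf7, a T cell factor, read -0.87, -3.01 and -1.91. Each had an adjusted p of 0.662 in limma. Ribosomal proteins were lower on the untreated array than on both PBS arrays in 21 of 26, but their median of -0.29 turned to 0.03 with quantile scaling.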

How the data were processed

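Marrow RNA was amplified with Cy3 for 1-colour Agilent arrays, per the labels' protocols. Spot intensity in the authors' deposited scanner output came from Feature Extraction 10.7.3.1 with the software's background subtraction, per the file headers. The deposited value table holds log2 values; its scaling is not given in the labels or headers, and set against the scanner values, centred per probe over the 6 arrays, it had slopes of 0.9991 to 1.001 and medians of -0.104, -0.0571 and -0.0978 on the untreated array, PBS replicate 1 and PBS replicate 2, so its scale and direction are settled and it served as an alternative.

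From the scanner files, control spots and outlier flags were left out, processed signals were put on a log2 scale, the 75th percentile of each array was subtracted, and spots of 1 probe were averaged, which left out 17 of 41174 probes. Symbols came from unversioned accessions matched to RefSeq (GRCm38.p6), and the other 14479 probes kept the file's identifier. A gene stood as its brightest probe by mean over the control arrays and entered the test when that probe cleared background on 1 or more of them. The test was limma 3.58.1 in R 4.3.3 with lmFit, eBayes and a two-sided Benjamini-Hochberg threshold of 0.05. The number of arrays limits the precision. Differences between the PBS arrays and ranks have no test.

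Genes named are the 20 brightest, list members up to the 5 brightest and 6 members near background per list, 3 of smallest p or those needed for a role, the 12 largest and 12 smallest SDs, and the largest differences past the threshold with the untreated array outside both PBS arrays. The members and lists were chosen with earlier results of these data known. Alternatives covered scaling, background correction, filter, probe rule, value table, samples, slide, prior and each replicate left out. Some list members are counted in the lists but are not reported here by name.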

Additional observations from a re-analysis of the deposited data

How the results depend on the processing

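Of the untreated against PBS counts, 68 genes higher and 4 lower became 0 and 0 with normexp on median signals, with probes well above background on all 3 control arrays or on at least 3 of 6 arrays, with the 3 control arrays only, with slide as a block and with an intensity trend and robust prior. Leaving out 1 array at a time gave 25 to 64 higher and 0 to 81 lower; the lower count was 65 and 81 with the first or the second PBS array left out, 10 with rHuEPO replicate 1 left out and 0 with replicate 2 or 3 of that group left out, where the higher count was 28 and 25. A lone array is there assumed to vary like the other groups. The cause was not tested. The filters on all 3 control arrays or on at least 3 of 6 arrays remove nearly all of the 68 before testing. Their count of 0 higher was therefore largely fixed in advance. Median, quantile scaling, no filter, probe means and the deposited table gave 62 to 71 higher and 3 or 4 lower.

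Ranked among genes well above background on all 3 arrays alone, which removes dim genes from below, the median percentile was 80.2 for erythroid, 94.3 for granulocyte, 49.8 for lymphoid, 44.2 for stromal and 98.2 for housekeeping genes. Leaving out 1 array moved the lymphoid median between 72.8 and 76.9, the latter without PBS replicate 1. Dim genes numbered 6866 when set against the 95th percentile of negative control spots. The median SD was 0.207 with normexp and 0.197 to 0.275 with 1 array left out. The PBS difference of ribosomal proteins was -0.025 with quantile scaling, and their untreated minus PBS median turned to 0.034; the list medians' alternatives were chosen after seeing the data. No paired analysis was possible because the untreated array and the PBS arrays share only replicate number 1. Signal near background limits genes in the lower part of the ranking.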
